A study of Mus musculus with 15 samples.

Results

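The genes described here carry out MHC class I antigen presentation, and their RNA was followed in mouse embryonic fibroblasts (MEFs) that differ in the beta-actin gene Actb. The set has 10 members out of the 46603 gene IDs counted in each library: H2-K1, H2-D1, B2m, Tap1, Tap2, Tapbp, Psmb8, Psmb9, Psmb10 and Nlrc5. They were taken by name for their place in the pathway, with earlier results of these data known. All 10 passed the filter on low counts and were tested. RNA sequencing covered 15 libraries in 5 groups of 3. They were knockout (KO, Actb -/-), heterozygous (HET, Actb +/-) and wild-type (WT, Actb +/+) cells at day 14, and KO and WT cells at day 4. A HET group of day 4 was not analysed here. In all groups the labels give BALB/c as the strain and 10.5 days as the embryo age. The MEFs came from another laboratory, were grown to confluence on Matrigel and were then kept in a commercial osteogenic medium with dexamethasone and forskolin, each given in the labels as 5 mM. The labels call the product chemically reprogrammed osteoblasts. They do not say whether the 3 replicates of a group were separate embryos, MEF lines or cultures. The p-values below therefore measure only spread between these libraries. The fit estimates that spread for each gene over all 5 groups together, although the groups differed in it. For H2-D1, the SD was 11.8% of the mean in HET libraries of day 14 and 0.735% in KO libraries of day 4. Where the groups compared spread more than the shared estimate, p-values can be too small, and where less, too large.

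MHC class I molecules show fragments of a cell's own proteins to cytotoxic T cells. The proteasome cuts proteins into peptides, the TAP transporter carries the peptides into the endoplasmic reticulum, and chaperones there load them onto a heavy chain paired with beta-2 microglobulin. Most cell types, fibroblasts included, express the pathway at a basal level, and interferons are known to raise it as a group, partly through the transcriptional activator NLRC5.

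Total counts per library ran from 21460603 to 24822803 in KO, from 19878449 to 22180840 in HET and from 20021426 to 20417022 in WT cells at day 14. At day 4 they ran from 30742874 to 35735683 in KO and from 25665666 to 47486736 in WT cells. Actb had 941 to 1128 counts in KO, 31060 to 31876 in HET and 63142 to 65618 in WT libraries at day 14, and 4303 to 4893 in KO against 27627 to 52180 in WT libraries at day 4. HET replicate 2 stood apart from HET replicates 1 and 3: the chi-square of its counts against theirs was 47.3 and 47.6 per degree of freedom, against 2.84 between the other two, and ribosomal protein genes took 4.05% of its counts against 2.82% and 2.85%. The WT libraries of day 14 differed by 4.89 to 17.8 on that scale. The mitochondrial share of counts was 1.08% to 1.12% in KO, 0.729% to 0.851% in HET and 0.484% to 0.542% in WT libraries at day 14, and 0.836% to 0.845% in KO against 0.415% to 0.421% in WT libraries at day 4. These shares move with genotype, and their part in the results below was not tested. Of the osteoblast markers, Ibsp had no count outside WT day 14, where it had 3, and Sp7 and Bglap had at most 4 and 25 counts summed over any group. Other genes of the bone lineage were expressed: Runx2 averaged 20.6 to 71.2 CPM over the groups, Alpl 3.39 to 128 CPM and Spp1, which other cell types also express, 1461 to 5068 CPM. The fibroblast genes Vim and Col1a1 averaged 396 to 1507 CPM and 107 to 1610 CPM over the groups (CPM are a gene's counts scaled to the library's total). Other fibroblast genes were nearly absent from some groups or all. Col1a2 had 30484 counts summed over the HET libraries, against 8 in KO and 20 in WT libraries at day 14. At day 4 it had 262 counts in KO and 2 in WT libraries. Thy1 had at most 16 counts summed over any group. Dcn averaged 42.5 CPM in KO and 503 CPM in WT libraries at day 14.

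The heavy chain genes vary more between mouse strains than most genes, and the reference genome comes from another strain (C57BL/6J) than the labelled BALB/c. Of all 50-base stretches of the H2-K1 and H2-D1 reference transcripts, 8.79% and 14.3% also occur in another gene, with each other and H2-Q and H2-T genes among the sources, against 0% to 2.001% for the other 8 members. Counts of H2-K1 and H2-D1 are therefore uncertain, and a group that carries other alleles cannot be told apart from a group that expresses the gene at another level. Tapbp, Tap1, Tap2, Psmb8 and Psmb9 lie in the MHC region too. Whether the groups carry the same alleles there was not tested, so this limit holds for these genes as well. Reads in shared exons are a second limit. Of the exon bases, 29.0% in Tapbp, 18.5% in Tap2, 14.7% in Psmb8, 5.79% in Psmb9 and 3.87% in Tap1 lie in another gene too. The library kit does not mark strand, and the overlap of Tapbp with Zbtb22 is on the same strand.

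In GENCODE M21 (GRCm38), 7 members lie on chromosome 17 in the MHC region: Tapbp at 33915899 to 33929292, H2-K1 at 33996017 to 34000347, Psmb9 at 34181987 to 34187764, Tap1 at 34187553 to 34197225, Psmb8 at 34197721 to 34201454, Tap2 at 34203527 to 34216321 and H2-D1 at 35262730 to 35267499. B2m is on chromosome 2 at 122147686 to 122153083. Nlrc5 (94434356 to 94527272) and Psmb10 (105935735 to 105938444) are both on chromosome 8. By their RefSeq starts, Psmb9 and Tap1 are read in opposite directions from starts 226 bases apart, and 225 bases of their upstream windows are the same DNA. By the GENCODE spans above, these genes overlap and share 212 exon bases. A RefSeq start can lie inside the GENCODE span, as for H2-D1, whose window below falls within it. The 250 bases before the start (RefSeq, GRCm38.p6) are printed only for both heavy chains, for B2m and for Tap1, although all 10 members fell in KO cells at day 14. Table entries were found for 8 of the 10 members, not for Tap2 and Nlrc5. Of the windows not printed, those of Psmb9 and Tapbp hold some of the motifs marked below, and those of Psmb8 and Psmb10 hold none. H2-K1 has 2 listed starts, and the window of the more upstream start is shown. Capitals mark matches, on either strand, to the interferon response core AANNGAAA, to TGACG (the core of the X2 box), to ATTGG (the Y box), where N is any base, and to the kappa B core, GGG and CC with any 5 bases between them. Matches to the kappa B core on the 2 strands overlap each other.
H2-K1, chr17:34000348-34000597, minus strand: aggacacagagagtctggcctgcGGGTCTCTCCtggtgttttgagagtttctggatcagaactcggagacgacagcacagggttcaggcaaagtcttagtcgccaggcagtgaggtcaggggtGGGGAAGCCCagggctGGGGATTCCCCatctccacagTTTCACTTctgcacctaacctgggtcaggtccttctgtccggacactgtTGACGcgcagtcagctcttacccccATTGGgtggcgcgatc
H2-D1, chr17:35262844-35263093, plus strand: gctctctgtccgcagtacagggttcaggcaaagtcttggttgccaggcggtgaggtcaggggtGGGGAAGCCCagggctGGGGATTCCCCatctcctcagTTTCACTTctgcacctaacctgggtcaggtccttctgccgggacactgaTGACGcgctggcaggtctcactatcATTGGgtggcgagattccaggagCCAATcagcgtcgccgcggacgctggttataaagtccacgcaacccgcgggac
B2m, chr2:122147437-122147686, plus strand: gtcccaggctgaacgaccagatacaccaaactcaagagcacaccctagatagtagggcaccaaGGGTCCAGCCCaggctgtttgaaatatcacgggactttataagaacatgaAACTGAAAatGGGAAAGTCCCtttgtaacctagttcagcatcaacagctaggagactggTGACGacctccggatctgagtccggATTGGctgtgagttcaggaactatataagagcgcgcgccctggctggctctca
Tap1, chr17:34187306-34187555, plus strand: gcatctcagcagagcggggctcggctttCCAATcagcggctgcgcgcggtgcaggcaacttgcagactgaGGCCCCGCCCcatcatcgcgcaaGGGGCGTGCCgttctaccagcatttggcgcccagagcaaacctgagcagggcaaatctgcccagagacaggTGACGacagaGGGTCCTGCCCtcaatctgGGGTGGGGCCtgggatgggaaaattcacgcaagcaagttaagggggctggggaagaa

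TGACG, 20 bases and then ATTGG stood in this order in the windows of H2-K1, H2-D1 and B2m, at -41 to -12, -101 to -72 and -78 to -49 from the start. That spacing was looked for after these sequences had been read, and 30 of 32851 windows of this length in the mouse table (0.0913%) hold it. The single motifs are common. AANNGAAA occurred in 3 of the 8 members' windows (H2-K1, H2-D1 and B2m) and in 21.3% of all windows. TGACG occurred in 5 of 8 against 17.8% of all windows, ATTGG in 6 of 8 against 33.8%, and the kappa B core in 5 of 8 against 45.8%. The GAS motif, TTCNNNGAA, was also searched and is not in capitals: it occurred in 1 of 8 (Psmb8) against 7.02% of all windows. A match is a description of the letters and says nothing about binding in these cells.

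**Figure D1:**
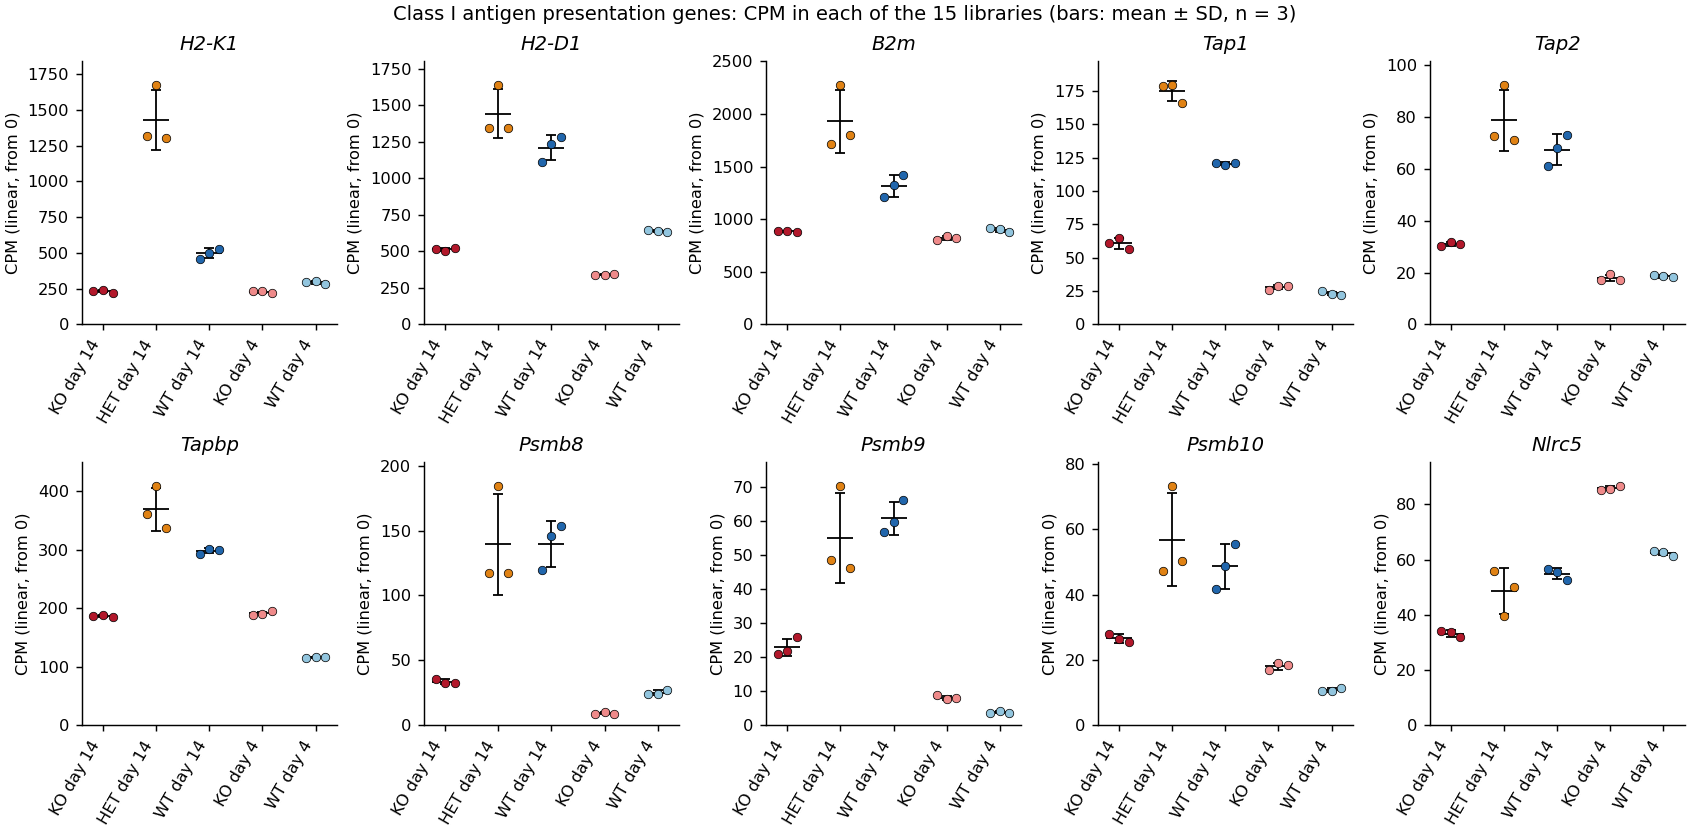
CPM (linear axis from 0) of each member in the 15 libraries, 1 panel per gene; points are libraries, bars the mean ± SD of 3. HET cells of day 14 have the highest mean for 8 of the 10 members, WT cells of day 14 for Psmb9 and KO cells of day 4 for Nlrc5. For Psmb8, 1 of those 8, the HET and WT means of day 14 are nearly equal (139.46 and 139.44 CPM).

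At day 14, all 10 members were lower in KO than in WT cells. Their log2 fold changes ran from -2.05 to -0.58 with a median of -1.04, against a median of -0.02 over all 15296 genes tested. The largest adjusted p among the 10 was 5.56e-05 (edgeR quasi-likelihood F test, Benjamini-Hochberg over all genes, threshold 0.05, used for every adjusted p here). Calls were frequent: 63.1% of all genes passed the threshold in this comparison, 30.9% higher and 32.2% lower in KO. The 10 of 10 members that were lower stand beside that 32.2%. Since the members were chosen with earlier results of these data known, this is a description and no independent contrast. For all 10 members the 3 KO values lay below the 3 WT values, which held in either direction for 69.1% of all genes. In bulk RNA, fewer cells that express a gene and less RNA per cell cannot be told apart.

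The heavy chains H2-K1 and H2-D1 hold the peptide at the cell surface. H2-K1 had 236, 239 and 222 CPM in KO libraries, 1319, 1675 and 1303 CPM in HET libraries and 459, 502 and 529.6 CPM in WT libraries. No library of one genotype overlapped another: KO was 2.14-fold below WT (log2 -1.10 ± 0.08, SE, adjusted p = 1.54e-08), and HET was 2.88-fold above WT (log2 1.53 ± 0.08, adjusted p = 3.57e-10). H2-D1 had 517, 505 and 525 CPM in KO, 1344, 1639.9 and 1348 CPM in HET and 1113, 1237 and 1284 CPM in WT libraries. Its KO values were likewise apart, 2.35-fold below WT (log2 -1.23 ± 0.07), while HET values lay just above those of WT, with a log2 difference of 0.25 ± 0.07 and an adjusted p of 0.00566. B2m encodes beta-2 microglobulin, the invariant light chain. It had 889, 888 and 875 CPM in KO, 1714, 2275 and 1803 CPM in HET and 1212, 1324 and 1419 CPM in WT libraries, again without overlap. Its fall in KO cells was the smallest of the 10 (log2 -0.58 ± 0.08, 1.49-fold).

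Tap1 and Tap2 encode the subunits of the peptide transporter, and Tapbp encodes tapasin, which holds the empty heavy chain next to it. Tap1 had 61.3, 64.5 and 56.5 CPM in KO, 178, 179 and 166 CPM in HET and 121, 119 and 121 CPM in WT libraries. KO cells were 1.98-fold below WT cells (log2 -0.99 ± 0.06) and HET cells 1.45-fold above them (log2 0.54 ± 0.06). Tap2 had 30.2, 31.7 and 31.0 CPM in KO, 72.7, 92.4 and 71.3 CPM in HET and 61.2, 68.1 and 73.0 CPM in WT libraries. The KO values stood apart (log2 -1.12 ± 0.09 against WT), and the HET values overlapped those of WT. Tapbp had 187, 189 and 185 CPM in KO, 360.5, 408 and 337 CPM in HET and 293, 301 and 299.9 CPM in WT libraries. Its 3 genotypes did not overlap, with KO at -0.67 ± 0.06 and HET at 0.31 ± 0.06 on the log2 scale against WT.

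Psmb8, Psmb9 and Psmb10 encode the catalytic subunits LMP7, LMP2 and MECL-1, which replace the constitutive subunits in the immunoproteasome and favour the peptide ends that class I molecules bind. Psmb8 fell the furthest of the 10 members: it had 35.6, 32.7 and 32.7 CPM in KO, 117, 184 and 117 CPM in HET and 119, 146 and 153 CPM in WT libraries. KO was 4.14-fold below WT (log2 -2.05 ± 0.15, adjusted p = 1.09e-08), and the HET values lay on both sides of the WT values. Psmb9 had 21.1, 21.9 and 25.9 CPM in KO, 48.8, 70.4 and 46.2 CPM in HET and 56.9, 59.7 and 66.3 CPM in WT libraries. Psmb10 had 28.1, 26.3 and 25.5 CPM in KO, 47.1, 73.2 and 50.3 CPM in HET and 41.6, 48.7 and 55.6 CPM in WT libraries. For both genes KO stood below every WT library (log2 -1.41 ± 0.13 and -0.87 ± 0.14), and HET replicate 2 was the highest of all 15 libraries.

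Nlrc5, the class I transactivator, had 34.1, 33.7 and 31.9 CPM in KO, 55.9, 39.7 and 50.2 CPM in HET and 56.7, 55.4 and 52.8 CPM in WT libraries at day 14. KO was 1.65-fold below WT (log2 -0.73 ± 0.09, adjusted p = 3.85e-06). HET replicate 2, the highest HET library for 9 members, was the lowest for Nlrc5.

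**Figure D2:**
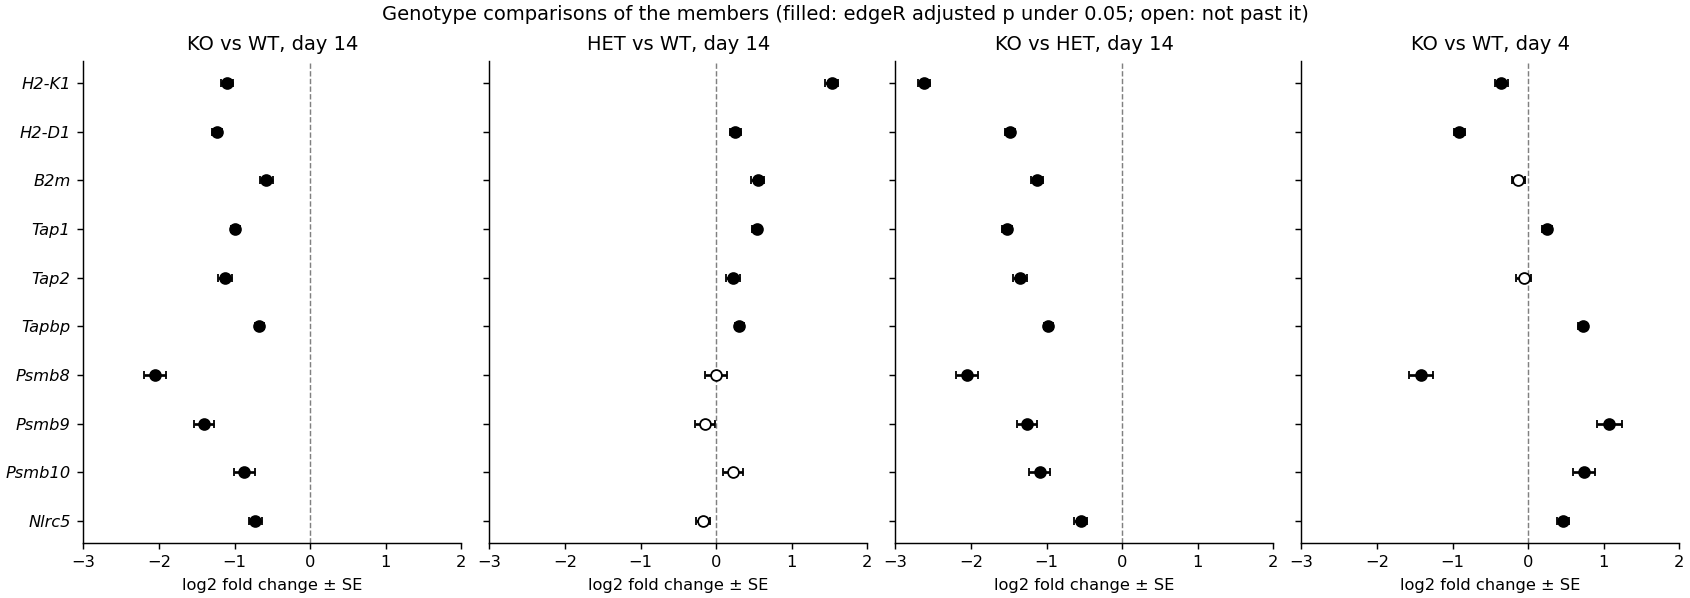
log2 fold change ± SE of each member in the 4 genotype comparisons, filled where the adjusted p was under 0.05. In KO cells of day 14 all 10 points lie left of 0, whether HET or WT is set against them, and at day 4 the called points are split, 5 right of 0 and 3 left of it.

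The HET mean lay between the KO and WT means for 2 members, Psmb9 and Nlrc5, and above both for the other 8. For Psmb8 the HET and WT means were nearly equal (139.46 and 139.44 CPM). Against WT at day 14, 6 members were higher in HET cells (H2-K1, H2-D1, B2m, Tap1, Tap2 and Tapbp), none was lower and 4 did not pass (58.3% of all genes passed, 28.3% higher and 29.9% lower). The median log2 fold change was 0.24, against -0.02 over all genes. H2-K1 had the largest change, and the other 5 called members lay between 0.22 (Tap2) and 0.55 (B2m). The 4 that did not pass were the immunoproteasome subunits Psmb8 (-0.00 ± 0.14, adjusted p = 0.997), Psmb9 (-0.15 ± 0.13, 0.35) and Psmb10 (0.22 ± 0.14, 0.172), and Nlrc5 (-0.17 ± 0.09, 0.103). HET and WT values did not overlap for 5 members, against 54.3% of all genes. Several of these calls depend on single HET libraries. Without HET replicate 2, Psmb8 was at -0.25 (adjusted p = 0.00892) and Psmb9 at -0.36 (adjusted p = 6.37e-04), both lower in HET, Tap2 at 0.09 was no longer called (adjusted p = 0.247), and H2-D1 was at 0.15 (adjusted p = 0.00416). Without HET replicate 1, Nlrc5 at -0.28 (adjusted p = 0.0082) and Psmb10 at 0.34 (adjusted p = 0.0408) passed. With only the groups compared, H2-D1 did not pass (adjusted p = 0.0823).

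Against HET cells, all 10 members were lower in KO cells, from -2.63 for H2-K1 to -0.55 for Nlrc5 (median -1.30, all genes -0.01; 59.5% of all genes passed, 30.1% lower). This comparison uses the same KO libraries as that of KO against WT, and the same HET libraries as that of HET against WT. H2-K1 was 6.17-fold lower in KO than in HET cells, and Psmb8 4.14-fold lower. KO and HET values did not overlap for any of the 10, against 61.8% of all genes.

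At day 4 the members did not move together. Against WT, KO cells had 5 members higher and 3 lower, with B2m and Tap2 not past the threshold (69.5% of all genes passed, 35.7% higher and 33.8% lower). The median was 0.10, against 0.03 over all genes. The lower members were the heavy chains and 1 immunoproteasome subunit. H2-K1 had 231, 235 and 222 CPM in KO and 294, 302 and 284 CPM in WT libraries (log2 -0.35 ± 0.08). H2-D1 had 339, 341 and 344 CPM in KO and 648, 640.3 and 636 CPM in WT libraries (log2 -0.91 ± 0.07). Psmb8 had 8.90, 10.5 and 8.83 CPM in KO and 23.9, 24.6 and 27.1 CPM in WT libraries (log2 -1.42 ± 0.16, 2.68-fold lower). For all 3 genes every KO library lay below every WT library, as at day 14.

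The members higher in KO cells at day 4 were Tap1, Tapbp, Psmb9, Psmb10 and Nlrc5, each of which was lower in KO cells at day 14. Psmb9 had 8.84, 7.74 and 8.004 CPM in KO and 3.73, 4.29 and 3.62 CPM in WT libraries (log2 1.07 ± 0.17, 2.102-fold, adjusted p = 2.62e-05). Psmb10 had 16.8, 19.1 and 18.3 CPM in KO and 10.4, 10.7 and 11.4 CPM in WT libraries (log2 0.74 ± 0.15). Tapbp had 189, 191 and 195 CPM in KO and 115, 117 and 116 CPM in WT libraries (log2 0.72 ± 0.06). In each of these the KO values lay above all WT values. Nlrc5 had 85.4, 85.8 and 86.6 CPM in KO and 63.1, 62.7 and 61.5 CPM in WT libraries (log2 0.46 ± 0.09), all of them above every library of day 14. Tap1 had 26.0, 28.5 and 28.7 CPM in KO and 24.7, 23.04 and 22.1 CPM in WT libraries, a small difference without overlap (log2 0.25 ± 0.07, adjusted p = 0.00282). B2m had 804, 838 and 823 CPM in KO and 915, 904 and 877 CPM in WT libraries (log2 -0.13 ± 0.08, adjusted p = 0.18), and Tap2 had 17.3, 19.3 and 17.2 CPM in KO and 19.2, 18.5 and 18.2 CPM in WT libraries (log2 -0.06 ± 0.10, adjusted p = 0.617). The difference of B2m passed without HET replicate 2 of day 14 (adjusted p = 0.00517), with only the groups compared (3.13e-11) and with a looser filter on low counts (0.0313). The 2 genotypes overlapped for Tap2 and for no other member, and 79.7% of all genes did not overlap.

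**Figure D3:**
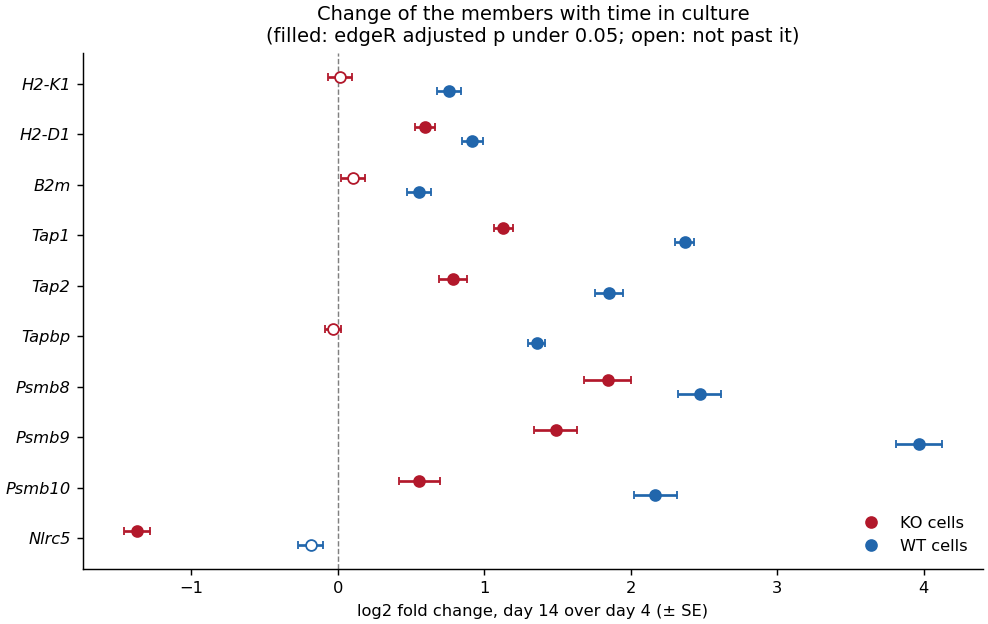
log2 fold change ± SE of day 14 over day 4 for each member in KO and in WT cells, filled where the adjusted p was under 0.05. The WT point lies right of the KO point for all 10 members, and Psmb9 in WT cells is farthest right at 3.97.

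In WT cells, 9 of the 10 members were higher at day 14 than at day 4, and none was lower (74.6% of all genes passed, 39.7% higher and 34.9% lower). The median log2 fold change was 1.61, against 0.08 over all genes. Psmb9 rose most, 15.6-fold (log2 3.97 ± 0.16), followed by Psmb8 (2.47 ± 0.15), Tap1 (2.37 ± 0.06), Psmb10 (2.17 ± 0.14), Tap2 (1.85 ± 0.09) and Tapbp (1.36 ± 0.06). The heavy chains and light chain rose less, H2-D1 by 0.92 ± 0.07, H2-K1 by 0.76 ± 0.08 and B2m by 0.55 ± 0.08. Nlrc5 was the exception, at -0.18 ± 0.09 (adjusted p = 0.066; 0.0249 without HET replicate 1, 0.00195 without HET replicate 2 and 0.0400 with DESeq2). In KO cells, 6 members were higher at day 14, Nlrc5 was lower and H2-K1, B2m and Tapbp did not pass (60.9% of all genes passed, 30.8% higher and 30.1% lower; median of the members 0.58, all genes 0.00). Psmb8 (1.84 ± 0.16), Psmb9 (1.49 ± 0.15) and Tap1 (1.13 ± 0.06) rose most there. Tap2 rose by 0.79 ± 0.10, H2-D1 by 0.60 ± 0.07 and Psmb10 by 0.56 ± 0.14. H2-K1 was at 0.02 ± 0.08, B2m at 0.11 ± 0.08 (adjusted p = 0.29, 0.0272 without HET replicate 2 and 1.78e-08 with only the groups compared) and Tapbp at -0.03 ± 0.06. Nlrc5 fell to 33.2 ± 1.18 CPM at day 14, against 85.9 ± 0.657 CPM at day 4 (SD, n = 3 each; log2 -1.37 ± 0.09). Values of the days did not overlap for 9 members in KO cells (74.2% of all genes) and for 10 in WT cells (78.0% of all genes).

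The interaction of genotype and day tested the difference itself. For all 10 members the log2 change with time was smaller or more negative in KO than in WT cells, and all 10 passed (64.7% of all genes passed, 34.0% in this direction and 30.7% in the other). The median difference was -1.13 on the log2 scale, against -0.08 over all genes. Psmb9 had the largest, -2.48 ± 0.21, and H2-D1 the smallest, -0.32 ± 0.10 (adjusted p = 0.00973). The difference for Psmb8, -0.63 ± 0.22 (adjusted p = 0.0194), was no longer called without KO day 4 replicate 2, where it was -0.54 (adjusted p = 0.059).

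**Figure D4:**
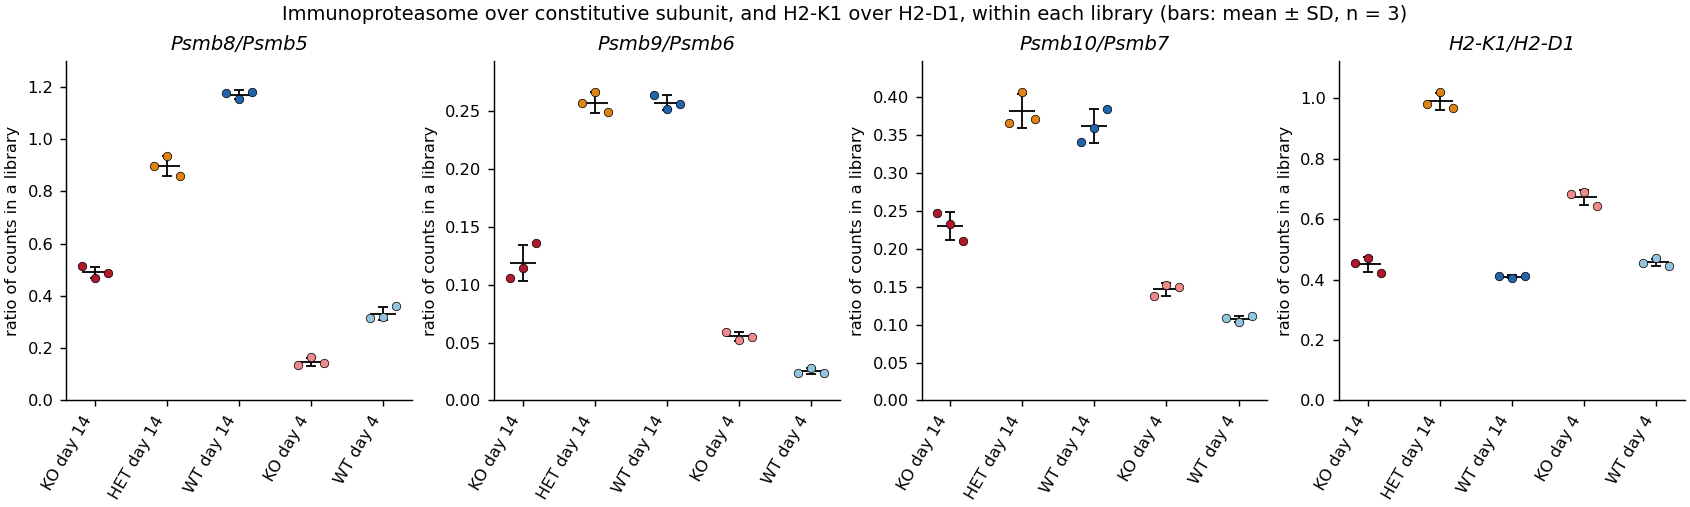
Ratio of the counts of an immunoproteasome gene to those of the constitutive subunit it replaces, and of H2-K1 to H2-D1, in each library (linear axis from 0); bars are the mean ± SD of 3. Psmb8/Psmb5 separates all 5 groups, and H2-K1/H2-D1 is near 1 in HET libraries only.

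Ratios of counts within a library do not depend on its depth or scaling. Psmb8 replaces Psmb5 in the immunoproteasome, and their ratio was 0.470 to 0.513 in KO, 0.858 to 0.936 in HET and 1.15 to 1.18 in WT libraries at day 14, with no overlap. At day 4 it was 0.136 to 0.165 in KO and 0.315 to 0.361 in WT libraries. In HET cells this ratio was thus below that of WT in all 3 libraries, HET replicate 2 included, although Psmb8 itself overlapped; Psmb5 was higher in HET than in WT cells (log2 0.38 ± 0.12, adjusted p = 0.0146; 0.16 and 0.0441 without HET replicate 2). Psmb9 replaces Psmb6, and their ratio was 0.106 to 0.136 in KO, 0.249 to 0.267 in HET and 0.252 to 0.264 in WT libraries at day 14. HET and WT libraries overlapped, and KO libraries lay below both. At day 4 the order was the opposite, 0.0520 to 0.0595 in KO and 0.0237 to 0.0285 in WT libraries. Psmb10 replaces Psmb7, with ratios of 0.210 to 0.247 in KO, 0.366 to 0.406 in HET and 0.340 to 0.384 in WT libraries at day 14, and 0.137 to 0.152 in KO and 0.103 to 0.111 in WT libraries at day 4. A ratio shows unequal levels and not which of the genes moved.

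H2-K1 over H2-D1 was 0.423 to 0.473 in KO, 0.967 to 1.02 in HET and 0.406 to 0.412 in WT libraries at day 14, and 0.645 to 0.689 in KO and 0.447 to 0.471 in WT libraries at day 4. The HET libraries stood apart from the other 12. Set against the light chain, the ratio of H2-K1 to B2m was 0.254 to 0.269 in KO, 0.723 to 0.770 in HET and 0.373 to 0.379 in WT libraries at day 14, again without overlap. Psmb9 over Tap1, the pair with a shared upstream window, was 0.339 to 0.458 in KO, 0.273 to 0.393 in HET and 0.471 to 0.547 in WT libraries at day 14, and 0.271 to 0.340 in KO and 0.151 to 0.186 in WT libraries at day 4.

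Levels can be set between genes only per length. In mean CPM per kilobase of the principal GENCODE transcript, at day 14, B2m led with 1028 in KO, 2245 in HET and 1533 in WT cells. H2-D1 followed at 245, 687 and 576 in KO, HET and WT cells, and H2-K1 was at 143, 885 and 307. H2-K1 was thus above H2-D1 in HET cells on this scale, but not when all exons of a gene set its length (488 against 559.9). Tapbp lay at 64.6, 127 and 103 in KO, HET and WT cells. Tap1, Psmb8, Psmb9 and Psmb10 lay between 17.0 and 20.7 in KO, between 40.8 and 85.7 in HET and between 37.1 and 85.6 in WT cells. Tap2 had 8.99, 22.9 and 19.6. Nlrc5 was the lowest of the 10 at 4.39, 6.42 and 7.25 in KO, HET and WT cells. The choice of length matters for the genes in between: with all exons, Psmb9 was at 6.27, 15.1 and 16.7 in KO, HET and WT cells, below Tap2 at 8.18, 20.8 and 17.8.

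Over the 5 groups, the highest mean CPM of a member was from 2.35 times (B2m) to 15.7 times (Psmb9) the lowest. The lowest group was KO day 4 for 5 members, WT day 4 for 4 and KO day 14 for Nlrc5. Neighbours in the order that overlapped were KO day 14 and KO day 4 for H2-K1, KO day 14 and WT day 4 for B2m, KO day 4 and WT day 4 for Tap2, and HET and WT day 14 for Tap2, Psmb8, Psmb9, Psmb10 and Nlrc5. Across the 15 libraries, log CPM of the 9 members other than Nlrc5 correlated with Pearson's r of 0.67 to 0.98 over 36 pairs (median 0.88), and Nlrc5 correlated with those 9 at -0.49 to -0.18. These values describe 5 groups and not 15 independent points. Among 9601 genes with a mean of at least 10 CPM, those most like the mean of the 10 members were Ifngr2, a chain of the interferon gamma receptor (r = 0.989), Dact3 (0.987), Irf1, an interferon response factor (0.986), Rps12-ps3 (0.986) and Prkcd (0.982). For Nlrc5 they were Mgat3 (0.984), Mthfd2l (0.968), Cdkn1b (0.968), Gprasp1 (0.963) and Ppib (0.963).

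**Figure D5:**
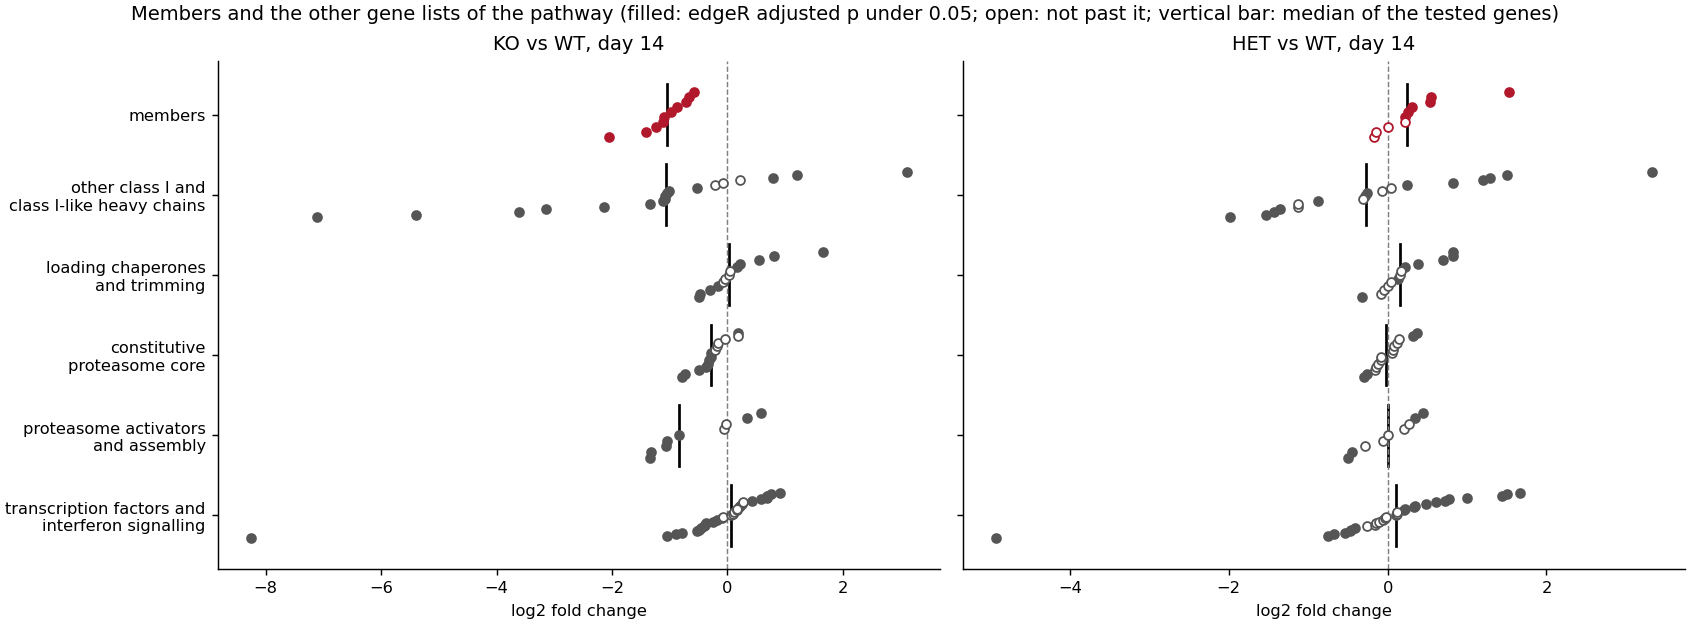
log2 fold changes of the 10 members and of the tested genes of 5 other lists, KO against WT (left) and HET against WT (right) at day 14; filled points passed the threshold and vertical bars are medians. The points farthest left in the left panel are Irf8, with 6 counts over the KO libraries, and H2-T3, with none, whose fitted value is no measure of size. The members lie there between -2.05 and -0.58.

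Among 26 other class I and class I-like heavy chain genes, 22 were matched to an ID and 18 were tested. In KO against WT cells at day 14, 12 were lower, 3 higher and 3 not past the threshold (median -1.06), where 32.2% of all genes were lower and 30.9% higher. H2-T3 had no count in KO and 41 counts in WT libraries, and would lie below that median even with 3 counts in KO. H2-Q7, a Qa-2 gene, had 2.37, 3.20 and 2.45 CPM in KO, 261, 298 and 264 CPM in HET and 101, 109 and 126 CPM in WT libraries (KO against WT log2 -5.39 ± 0.12). H2-Q6 had 21.5, 20.99 and 20.9 CPM in KO, 145, 174 and 145 CPM in HET and 175, 191 and 198 CPM in WT libraries (log2 -3.15 ± 0.07). Both were far lower in KO cells at day 4 too, at -3.18 ± 0.09 and -2.49 ± 0.07. The 3 higher genes were Mr1 (0.79 ± 0.11), H2-T24 (3.11 ± 0.23) and H2-T23. H2-T23 encodes Qa-1, the ligand of an inhibitory receptor of natural killer cells. It had 38.4, 39.9 and 38.6 CPM in KO, 151, 203 and 152 CPM in HET and 15.8, 18.4 and 16.3 CPM in WT libraries (KO against WT log2 1.21 ± 0.11, HET against WT 3.33 ± 0.11). H2-Q4 was at -1.04 ± 0.08 and H2-M3, which presents formylated peptides, at -0.22 ± 0.10 (adjusted p = 0.0855). Between 24.3% and 40.2% of the 50-base stretches of H2-Q4, H2-Q5, H2-Q6 and H2-Q7 occur in another gene, so counts of single H2-Q genes are uncertain. As for H2-K1 and H2-D1, other alleles and another level of expression cannot be told apart for the H2-Q and H2-T genes. In HET against WT cells, 6 of the 18 were higher and 7 lower (all genes 28.3% and 29.9%). At day 4, in KO against WT cells, 4 were higher and 10 lower (all genes 35.7% and 33.8%).

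Of 13 tested chaperone and peptide trimming genes, 5 were higher and 4 lower in KO than in WT cells at day 14 (median 0.03), near the shares of 30.9% and 32.2% over all genes. The lower ones included calreticulin, Calr (-0.47 ± 0.05), and the tapasin-related Tapbpl (-0.49 ± 0.10), and the higher ones the peptidases Npepps (0.80 ± 0.05) and Tpp2 (0.54 ± 0.08) and calnexin, Canx (0.23 ± 0.05). Pdia3 (0.03 ± 0.06, adjusted p = 0.705) and the trimming peptidase Erap1 (-0.03 ± 0.11, 0.801) did not pass. Of the 14 genes of the constitutive proteasome core, 8 were lower and 1 higher (median -0.29), against 32.2% lower and 30.9% higher over all genes. Psmb5 was at -0.79 ± 0.12, Psmb6 at -0.29 ± 0.10 and Psmb7 at -0.21 ± 0.10 (adjusted p = 0.0719), each a smaller fall than that of the immunoproteasome gene that replaces it; those differences were not tested.

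Of 9 proteasome activator and assembly genes, 5 were lower and 2 higher in KO than in WT cells at day 14 (median -0.84), against 32.2% lower and 30.9% higher over all genes. Psme1 and Psme2 encode the PA28 activator, which interferon gamma is known to induce. Psme1 had 68.1, 67.4 and 71.3 CPM in KO, 127, 176 and 129 CPM in HET and 133, 147 and 151 CPM in WT libraries (KO against WT log2 -1.06 ± 0.10). Psme2 had 35.3, 39.1 and 37.9 CPM in KO, 87.8, 139.5 and 96.8 CPM in HET and 79.3, 99.97 and 102 CPM in WT libraries (log2 -1.33 ± 0.14). KO stood apart for both, and HET overlapped WT. Psme3, the nuclear activator outside the class I route, was higher in KO cells (0.58 ± 0.05). In HET against WT cells the core list had 2 genes higher and 2 lower and the activator list likewise 2 and 2 (all genes 28.3% and 29.9%). Without HET replicate 2 these counts were 2 higher and 9 lower of 14, and 2 higher and 5 lower of 9.

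Of 29 tested transcription factor and interferon signalling genes, 9 were higher and 12 lower in KO than in WT cells at day 14 (median 0.07), against 30.9% and 32.2% over all genes. Irf1, which binds the interferon response core of class I promoters, had 42.9, 45.6 and 43.9 CPM in KO, 81.3, 96.9 and 86.2 CPM in HET and 75.9, 75.1 and 78.2 CPM in WT libraries (KO against WT log2 -0.79 ± 0.07). Ifngr2 was at -0.90 ± 0.06 and Socs1, a feedback inhibitor of the pathway, at -1.06 ± 0.15. Stat2 (0.76 ± 0.06), Stat3 (0.91 ± 0.07), Irf2 (0.68 ± 0.09) and Irf7 (0.43 ± 0.08) were higher in KO cells. Irf8 had 0, 0.229 and 0.0395 CPM in KO, 1.44, 0.999 and 0.270 CPM in HET and 28.1, 26.4 and 27.3 CPM in WT libraries, with 6 counts in all over the KO libraries. Rfx5, which binds the X box with NLRC5, did not pass (0.16 ± 0.16, adjusted p = 0.389). Ciita, the class II counterpart of Nlrc5, was below the filter with 2 to 18 counts summed over a group. At day 4, 8 of the 29 were higher and 15 lower in KO than in WT cells (all genes 35.7% and 33.8%), with Irf7 at -2.97 ± 0.17. All 21 listed interferon genes were below the filter and were not tested, with 22 to 49 counts summed over a group.

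Blood and immune cells express this pathway at high levels, so their markers were counted as well. Of 18 markers, 5 were tested. In KO against WT cells at day 14, Cd68 was higher, Coro1a, Csf1r and Flt3 were lower and Lyz2 did not pass. Coro1a had 48 counts summed over the KO and 412 over the WT libraries, Csf1r 4 and 38, and Flt3 4 and 376. These 3 were lower in KO libraries of day 14, as were the 10 members. In HET libraries they had 171, 19 and 7 counts. Of the 5 tested markers, 3 were lower in HET than in WT cells at day 14 and none higher (all genes 29.9% and 28.3%). Lyz2 had 5 counts in HET and 82 in WT libraries, and Cd68 had 440 and 404. Of the 10 members, 6 were higher in HET than in WT cells and none lower. Without HET replicate 2, Psmb8 and Psmb9 were lower in HET cells. At day 4, Coro1a had 204 counts in KO and 73 in WT libraries, Csf1r 84 and 65, and Flt3 4 and 8174. The summed level of the 18 was 39.1 to 42.9 CPM in KO, 10.3 to 11.7 CPM in HET and 20.2 to 22.8 CPM in WT libraries at day 14, and 8.15 to 9.38 CPM in KO and 81.0 to 84.0 CPM in WT libraries at day 4. Cd68 made most of the KO day 14 sum, with a mean of 37.9 CPM, and Flt3 most of the WT day 4 sum, with 77.2 CPM. Of the defining markers, Ptprc had 0 to 17 counts summed over a group and Tyrobp 0 to 1, and 5 of the 18 had no count in KO libraries of day 14 (Adgre1, Laptm5, Nkg7, Tyrobp and Xcr1). The fibroblast and osteoblast list of 16 genes summed to 5678 to 5741 CPM in KO, 6812 to 6960.0 CPM in HET and 4626 to 4644 CPM in WT libraries at day 14, and to 9376 to 9458 CPM in KO and 6265 to 6283 CPM in WT libraries at day 4. The sums of this list do not show single genes that differed widely between groups, such as Col1a2 and Dcn. Endothelial and epithelial markers summed to at most 15.02 and 10.5 CPM in any library. The part of these levels in the results was not tested.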

How the data were processed

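RNA was sequenced in 15 libraries of MEFs in osteogenic medium. The deposited files hold raw counts of reads per gene, 1 file per library. The submitters' processing notes name TopHat2 2.1.0, HTSeq, DESeq2 and GRCm38.p4. Which annotation, HTSeq settings and strand setting were used is not given in the sources here. Of 46603 Ensembl IDs, 46091 matched GENCODE M21, and the other 512 held 0.0510% of counts.

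The members and gene lists were chosen with earlier results of these data known. From the deposited counts, edgeR 4.0.16 (R 4.3.3) fitted all 15 libraries by group after filterByExpr and TMM scaling, with robust quasi-likelihood F tests on 15296 genes in 7 comparisons. Benjamini-Hochberg adjustment ran over the genes of each comparison, with a threshold of 0.05. The common biological coefficient of variation was 8.33%. SEs are Wald SEs of the fit. CPM use TMM-scaled library sizes, and correlations use log2 CPM with a prior count of 2. The fit was first tested on simulated counts. Alternatives were a replicate block, only the groups compared, DESeq2 1.42.0, scaling by RLE, a looser filter (at least 1 count in all), a stricter one (at least 1 CPM in 3 libraries), and leaving out each library. Without HET replicate 2, counts of the other lists and their values in HET against WT were alternatives chosen after seeing the data.

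Genes outside the members are named by a fixed set of pathway genes, by the 2 smallest adjusted p-values in each direction of a list in KO against WT at both days and HET against WT, and by the 5 most like patterns. Not every gene that met these rules is named. Socs1, H2-T3, H2-Aa, H2-Eb1 and the single marker genes were named after their values were seen. A gene of the transcription factor list is counted in it but not reported here. Promoter windows come from RefSeq (GRCm38.p6), limited to the 250 bases before a start.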

Additional observations from a re-analysis of the deposited data

Results flagged for a closer look

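The change of KO against WT differed between the days for all 10 members. Each value is the log2 difference of KO minus WT at day 14 minus that at day 4, tested as the interaction of genotype and day (edgeR, Benjamini-Hochberg over 15296 genes, of which 64.7% passed). The values were -0.74 (adjusted p = 3.72e-05) for H2-K1, -0.32 (adjusted p = 0.00973) for H2-D1 and -0.45 (adjusted p = 0.00354) for B2m. They were -1.24 (adjusted p = 7.35e-09) for Tap1, -1.07 (adjusted p = 4.13e-06) for Tap2 and -1.39 (adjusted p = 5.37e-10) for Tapbp. For the immunoproteasome subunits they were -0.63 (adjusted p = 0.0194) for Psmb8, -2.48 (adjusted p = 4.81e-08) for Psmb9 and -1.61 (adjusted p = 3.68e-06) for Psmb10, and for Nlrc5 the value was -1.19 (adjusted p = 4.64e-07). For Tap1, Tapbp, Psmb9, Psmb10 and Nlrc5 the difference had opposite signs on the 2 days, above 0 at day 4 and below 0 at day 14. The mitochondrial and ribosomal protein shares of counts also differed between the groups, as did the depth of the libraries. The part of these differences in the values was not tested. Groups of 3 libraries are too small for the test of single outlying libraries used in larger groups.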

How the results depend on the processing

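The numbers of members past the threshold, and of all genes, stayed within 1.5 times those reported in all 7 comparisons under each of the 6 alternatives and the 15 fits that left out a library. Such totals do not show which members passed or in which direction. In HET against WT without HET replicate 2, Psmb8 (-0.25) and Psmb9 (-0.36) came to be called lower, and Tap2 lost its call. Over these settings, 1470 values of single members were computed: 1423 kept their sign and their side of the threshold, 18 changed sign, 16 came past the threshold and 13 fell short of it. Psmb8 in HET against WT, reported at -0.00, was 0.0110 with RLE scaling, 0.01997 with the looser filter, 0.0116 with only the groups compared and 0.0117 with DESeq2, and -0.25 to 0.11 with a library left out. H2-K1 at day 14 against day 4 in KO cells, reported at 0.02, was -0.00501 without KO day 4 replicate 3 and up to 0.0502 without other libraries. Tap2 in HET against WT, reported with an adjusted p of 0.0459, lost its call in 11 settings, and H2-D1 in that comparison with only the groups compared (adjusted p = 0.0823). Nlrc5 at day 14 against day 4 in WT cells came past the threshold in 6 settings, among them DESeq2 (adjusted p = 0.0400). The cause was not tested.

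Same-numbered libraries correlated at -0.150 to 0.179 in their deviations over 30 pairs, 1 of them above 0.1. Libraries within KO day 4, KO day 14 and WT day 4 differed little, with a chi-square of 2.15 to 2.97 per degree of freedom. Low correlations therefore cannot show whether replicate numbers pair the samples. With the replicate number as a block, all 7 counts of members were as reported (10, 6, 10, 8, 7, 9 and 10), and 9551 genes passed in KO against WT at day 14, against 9653 without it. Depth limits genes of few counts: the interferon genes were below the filter and were not tested.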

Other observations

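Class II genes, which present peptides from outside the cell and answer to a different activator, were measured in the same libraries. Of 12 listed, 5 were tested. In KO against WT cells at day 14, 4 were lower and none higher (32.2% and 30.9% of all genes), and at day 4 all 5 were higher (35.7% of all genes). Cd74, the invariant chain, had 34.8, 33.2 and 34.3 CPM in KO, 19.8, 27.2 and 20.1 CPM in HET and 47.6, 49.4 and 51.0 CPM in WT libraries at day 14, and 18.6, 19.7 and 17.2 CPM in KO and 5.81, 6.39 and 6.66 CPM in WT libraries at day 4. KO against WT was -0.53 ± 0.10 on the log2 scale at day 14 (adjusted p = 0.00021) and 1.56 ± 0.11 at day 4 (adjusted p = 3.22e-09). H2-DMa, a chaperone of class II loading, was at -2.23 ± 0.15 and 1.32 ± 0.13. H2-DMb1, its partner, had 536 counts over the 3 HET libraries, against 1 count in KO and 3 counts in WT libraries of day 14. Of the class II chains themselves, H2-Ab1 had 27 counts summed over the KO libraries and 163 over the WT libraries of day 14, and 383 over the KO and 10 over the WT libraries of day 4, and was called on both days. H2-Aa and H2-Eb1 had at most 2 and 11 counts summed over a group. The reference strain differs from the labelled strain here too, so other alleles and another level of expression cannot be told apart for H2-DMb1 and H2-Ab1.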
